A study of Homo sapiens with 6 samples.

Results

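The 10 genes described here encode ligands and receptors through which B cells and T cells license or restrain each other: CD80, CD86, ICOSLG, CD274 (PD-L1), PDCD1LG2 (PD-L2), PDCD1 (PD-1), BTLA, CD47, CD48 and CD58. They were chosen by symbol from the 20667 gene symbols measured in each of 6 RNA-seq libraries, and all 10 are present in the files. The cells were U2932, an established line of ABC-DLBCL, the activated B-cell-like form of diffuse large B-cell lymphoma, kept in culture without any stimulus named in the labels. In 3 libraries, numbered replicates 1 to 3, the cells stably expressed an shRNA against the kinase ROCK2 (ROCK2 KD), and in the other 3, numbered in the same way, a scrambled shRNA (Scr shRNA). Both groups carried a lentiviral pLKO.1 vector with a puromycin resistance cassette and the fluorescent protein tGFP, and both were sorted and selected. The study lists a single hairpin for ROCK2. The labels do not say whether libraries of a group came from separate infections or cultures, so p values measure only the spread between these libraries.

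T cells need a signal besides the antigen itself. CD80 and CD86 deliver it to CD28 and are captured by CTLA-4, and ICOSLG delivers a similar signal to ICOS. PD-1, engaged by PD-L1 or PD-L2, and BTLA, engaged by HVEM (TNFRSF14), restrain the cell that carries them. CD58 is the adhesion ligand of CD2, CD48 binds the SLAM family receptor CD244, and CD47 tells macrophages, through SIRPα, not to engulf the cell. In ABC-DLBCL and other large B-cell lymphomas some of these genes are known to be altered, with loss of CD58 and gains of the PD-L1 and PD-L2 locus as familiar examples.

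Values are scaled FPKM, that is, the deposited fragment levels divided by a factor for each library that ran from 0.684 to 1.24. The deposited levels already account for transcript length and library size. Both replicate 1 libraries had the lowest factors, 0.685 in ROCK2 KD and 0.684 in Scr shRNA, where the other libraries had 1.17 to 1.24. Differences are on the scale of log2(scaled FPKM + 1), written as ROCK2 KD minus Scr shRNA, a scale on which low genes look less changed than they are. A gene entered the limma fit when 3 or more libraries had a deposited FPKM, before scaling, of 1 or more, which 10526 did, and the replicate number was a block in that fit. The number of reads behind a value is not known, but the steps between the lowest values put the depth of the libraries between 71.4% and 100% of that of Scr shRNA replicate 3. ROCK2 was measured at 4.01, 4.40 and 1.04 in ROCK2 KD replicates 1, 2 and 3 and at 6.32, 5.84 and 4.92 in Scr shRNA. It was lower in all 3 same-numbered pairs, and its log2 fold change was -0.81 (adjusted p = 0.790 from limma, standard error 0.22), so that it did not pass the test over all genes. Replicate 3 carried much of it, with differences of -0.55, -0.34 and -1.53 in replicates 1, 2 and 3, and without replicate 3 the log2 fold change was -0.44. The B cell origin of the libraries was plain, with 7 of 8 B cell markers above the filter and summed levels of 687 to 1295 in ROCK2 KD and 492 to 1298 in Scr shRNA libraries. None of 9 T cell markers passed the filter, with summed levels of 0.327 to 2.06 in ROCK2 KD and 0.217 to 1.05 in Scr shRNA, CD2 and CD5 being listed at 0 in all 6 libraries. Of 9 myeloid and dendritic markers, CD68 and CD1C passed, and the list summed to 2.48 to 7.86 in ROCK2 KD and 2.67 to 4.14 in Scr shRNA, with ITGAX and FCGR3A at 0 throughout. Of 6 non-haematopoietic markers EPCAM alone passed, with sums of 2.39 to 6.52 and 2.19 to 7.49. In bulk libraries such as these, fewer cells with a transcript and less of it per cell cannot be told apart.

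No costimulatory or checkpoint gene passed the test. Of the 10, 7 were above the filter and were tested, and 3, ICOSLG, PDCD1LG2 and BTLA, were below it in every library. With limma and the block, 0 of the 7 reached an adjusted p under 0.05, as did 0 of all 10526 genes (0%). At an unadjusted p under 0.05 there were 4, PDCD1, CD58, CD47 and CD86, all higher in ROCK2 KD, where 3.15% of all tested genes were called in that direction. Without the block none of the 7 reached it, and 0.285% of all tested genes did. With the block and replicate 1, 2 or 3 left out, 3, 2 and 3 of the 7 reached it, all higher. Of all 10526 genes, 343, 368 and 274 were then called in that direction. The members were PDCD1, CD47 and CD58 without replicate 1, CD47 and CD58 without replicate 2, and CD86, PDCD1 and CD48 without replicate 3. All 7 had positive log2 fold changes, with a median of 0.33, against 48.7% of all tested genes and a median of -0.00. In all 3 same-numbered pairs, 5 were higher in ROCK2 KD, against 12.9% of all tested genes. PDCD1 and CD274 reached the filter, set on deposited FPKM, in exactly 3 libraries. For PDCD1 these were ROCK2 KD replicates 2 and 3 and Scr shRNA replicate 3. For CD274 they were ROCK2 KD replicates 1 and 2 and Scr shRNA replicate 1. Their inclusion thus rested partly on the libraries where they were high, more of them ROCK2 KD than Scr shRNA. Of the 5 genes at or above the filter in all 6 libraries, CD80, CD86, CD47, CD48 and CD58, 3 were higher in all 3 pairs, and their median log2 fold change was 0.33. The study named PDCD1 and CD86 among co-stimulatory genes that ROCK2 repressed, which means higher on knockdown. Its limma test, on counts corrected with ComBat, called differentially expressed genes where the fit on FPKM here called none. The libraries are the same, so the direction of PDCD1 and CD86 here is not independent evidence.

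**Figure D1:**
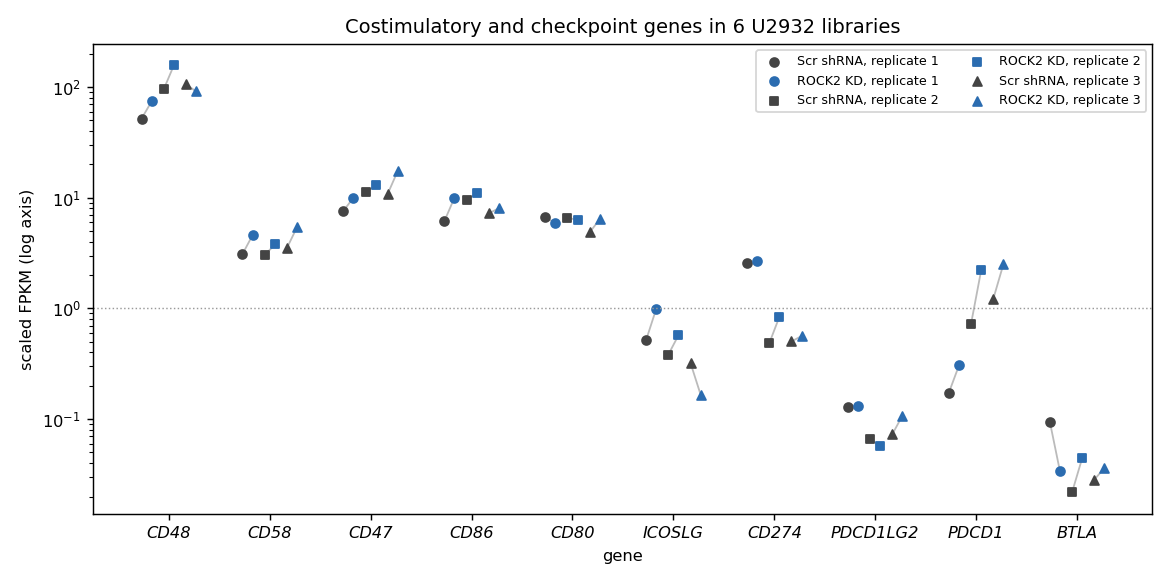
Scaled FPKM (log axis) of the 10 genes in each library, with grey and blue points for Scr shRNA and ROCK2 KD, shapes for the replicate number, lines joining same-numbered libraries and a dotted line at an FPKM of 1. CD48 sits highest, between 51.8 and 157, while PDCD1LG2 and BTLA lie at or below 0.132 in all 6 libraries.

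CD86, the B7 ligand that resting and activated B cells use to engage CD28, was measured at 9.97, 11.0 and 8.02 in ROCK2 KD replicates 1, 2 and 3 and at 6.12, 9.46 and 7.21 in Scr shRNA. It was higher in ROCK2 KD within every pair, but the groups overlapped, since Scr shRNA replicate 2 exceeded ROCK2 KD replicate 3. This gave a log2 fold change of 0.32 (95% interval 0.01 to 0.63, standard error 0.13, unadjusted p = 0.0446, adjusted p = 0.900 from limma). Replicate 1 carried most of it, with differences of 0.62, 0.20 and 0.14 in replicates 1, 2 and 3, and without replicate 1 the log2 fold change was 0.17. CD86 lies on chromosome 3 of GRCh37 from 121774209 to 121839986.

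CD80, the other B7 ligand of CD28 and the stronger binder of CTLA-4, was measured at 5.90, 6.27 and 6.39 in ROCK2 KD replicates 1 to 3 and at 6.66, 6.61 and 4.85 in Scr shRNA. All 6 libraries lay between 4.85 and 6.66, and ROCK2 KD was lower in replicates 1 and 2 and higher in replicate 3. Averaged over pairs the log2 fold change was 0.04 (standard error 0.13, 95% interval -0.27 to 0.35, adjusted p = 0.997 from limma), and it was -0.11 without replicate 3. CD80 occupies 119243140 to 119278461 on the minus strand of the same chromosome, 2495.7 kb from CD86, where TIMMDC1 overlaps it on the opposite strand. No source used here says that the counting used strand, so reads of such partners cannot be told apart. The ratio of CD86 to CD80 within a library, which no scaling can alter, was 1.69, 1.76 and 1.25 in ROCK2 KD and 0.918, 1.43 and 1.49 in Scr shRNA. It was higher in ROCK2 KD in replicates 1 and 2 and lower in replicate 3, and CD80 exceeded CD86 in a single library, Scr shRNA replicate 1.

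ICOSLG, the ligand of ICOS on follicular helper T cells, was too low to be tested. It was measured at 0.991, 0.572 and 0.166 in ROCK2 KD and 0.519, 0.383 and 0.321 in Scr shRNA. ROCK2 KD was higher in replicates 1 and 2 and lower in replicate 3, where the ratio was 0.519. The gene lies on chromosome 21 from 45635265 to 45661329.

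PDCD1, the inhibitory receptor PD-1, better known from exhausted T cells and follicular helper T cells than from B cells, had the largest log2 fold change of the set with all 3 pairs. It was measured at 0.306, 2.21 and 2.50 in ROCK2 KD replicates 1, 2 and 3 and at 0.174, 0.730 and 1.22 in Scr shRNA. Within each pair the ROCK2 KD library was the higher, by ratios of 1.76, 3.03 and 2.05, yet ROCK2 KD replicate 1 lay below the Scr shRNA libraries of replicates 2 and 3. The log2 fold change was 0.57 (standard error 0.16, 95% interval 0.19 to 0.95, unadjusted p = 0.00933, adjusted p = 0.798 from limma), a larger absolute value than that of 99.0% of tested genes. With a pseudocount of 0.1 in place of 1 it was 1.01. Without replicate 2 it was 0.41, below CD47 at 0.50 and CD58 at 0.48, and without replicate 3 it was 0.52, below CD48 at 0.61. CD3E, a T cell marker, was measured at 1.11, 0.366 and 0.246 in ROCK2 KD replicates 1, 2 and 3 and at 0.323, 0.143 and 0.0768 in Scr shRNA, above PDCD1 in both replicate 1 libraries and below it in the other 4. It was higher in ROCK2 KD in all 3 pairs, by ratios of 3.43, 2.57 and 3.20. The summed level of the T cell markers listed, CD3E included, was higher in ROCK2 KD in all 3 pairs. The sums were 2.06 against 1.05, 0.476 against 0.279 and 0.327 against 0.217 in replicates 1, 2 and 3. CD3E was the largest part of each ROCK2 KD sum, so the sum is not separate from it. No other T cell marker listed was higher in ROCK2 KD in all 3 pairs. CD8A was lower in replicates 1 and 3 and higher in replicate 2, and CD4 was higher in replicate 1 and lower in the others. The part of these transcripts in the PDCD1 values was not tested. PDCD1 lies on chromosome 2 from 242792036 to 242801046, on the minus strand.

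CD274 encodes PD-L1, the ligand through which tumour cells and myeloid cells engage PD-1. It was measured at 2.65, 0.838 and 0.563 in ROCK2 KD replicates 1, 2 and 3 and at 2.56, 0.485 and 0.503 in Scr shRNA. Both replicate 1 libraries stood apart from the other 4, and the knockdown differences were small beside that gap, at 0.04, 0.31 and 0.06. Its log2 fold change was 0.13 (standard error 0.12, 95% interval -0.15 to 0.42, adjusted p = 0.976 from limma), and it was 0.29 with a pseudocount of 0.1 and 0.05 without replicate 2. PDCD1LG2, the second PD-1 ligand, was measured at 0.132, 0.0572 and 0.108 in ROCK2 KD and 0.129, 0.0658 and 0.0733 in Scr shRNA, below the filter in all 6 libraries. The genes are neighbours on chromosome 9, CD274 from 5450503 to 5470566 and PDCD1LG2 from 5510531 to 5571282, with 40.0 kb between them, and an antisense lncRNA overlaps both. Levels of CD274 were between 5.23 and 20.1 times those of PDCD1LG2 within a library, per length. BTLA, an inhibitory receptor of the CD28 superfamily on chromosome 3 from 112182813 to 112218319, was the lowest gene of the set, at 0.0341, 0.0442 and 0.0361 in ROCK2 KD and 0.0949, 0.0218 and 0.0284 in Scr shRNA.

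Stretches of the CD274, CD86 and PDCD1 promoters are shown because they hold matches to motifs of factors active in ABC-DLBCL, and that of CD58, whose groups did not overlap, because it holds none. Motifs were sought on both strands from 250 bases before to 50 bases after each RefSeq start of the 9 genes present in RefSeq's promoter set (10 windows, RefSeq sequences, each with 1 exact match in GRCh37), and capitals mark the matches. CD86 has 2 such starts, and the stretch shown belongs to the internal one, 22.4 kb inside the gene. The interferon response type motif GAAANNGAA was found in CD274, where a tandem pair overlaps, and in BTLA, against 8.11% of 35116 promoters. The ETS-IRF composite type motif GGAANNGAA (7.79% of promoters) and the E-box CACGTG (7.26%) were found in PDCD1 alone, and the NF-kB consensus (5.91%) in PDCD1 and at the internal start of CD86, while the window of the outer CD86 start held none of the motifs. The AP-1 motif TGANTCA (7.71%) was found in none of the 9. The PDCD1 match to the NF-kB consensus lies outside the stretch printed. These matches describe the letters of the window and say nothing of binding in these cells.
CD274, chr9:5450302-5450371 of GRCh37, plus strand, bases -240 to -171: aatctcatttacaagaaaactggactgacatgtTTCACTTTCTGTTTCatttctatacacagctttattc
CD86, internal start, chr3:121796521-121796580, plus strand, bases -110 to -51: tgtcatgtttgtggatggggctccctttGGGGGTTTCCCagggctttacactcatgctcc
PDCD1, chr2:242801047-242801146, minus strand, bases -100 to -1: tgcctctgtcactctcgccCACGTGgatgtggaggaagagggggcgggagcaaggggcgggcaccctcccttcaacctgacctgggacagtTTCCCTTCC
CD58, chr1:117113649-117113748, minus strand, bases -100 to -1: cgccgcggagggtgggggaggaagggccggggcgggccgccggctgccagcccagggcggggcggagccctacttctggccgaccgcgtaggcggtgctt

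The promoter windows fell into different kinds. Those of CD47, ICOSLG, CD58 and CD274 held 45, 42, 36 and 22 CpG dinucleotides, above the median of 14 over all promoters. Those of PDCD1, CD80, CD48 and BTLA held 10, 7, 5 and 3, and those of CD86 held 3 at the outer and 4 at the internal start.

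CD58, the CD2 ligand that holds T cells and natural killer cells to their target, was the single tested gene of the set whose groups did not overlap, against 1.29% of all tested genes with ROCK2 KD higher. It was measured at 4.59, 3.78 and 5.40 in ROCK2 KD replicates 1, 2 and 3 and at 3.09, 3.02 and 3.51 in Scr shRNA. Every ROCK2 KD library lay above every Scr shRNA library, and the within-pair differences were 0.45, 0.25 and 0.51. Its log2 fold change was 0.40 (standard error 0.12, 95% interval 0.13 to 0.67, unadjusted p = 0.0101, adjusted p = 0.807 from limma). CD58 lies on chromosome 1 from 117057156 to 117113661, on the minus strand.

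CD47, the signal that restrains engulfment by macrophages, was measured at 10.0, 12.9 and 17.5 in ROCK2 KD and at 7.59, 11.1 and 10.9 in Scr shRNA. It was higher in ROCK2 KD within every pair, most in replicate 3, and the groups overlapped because ROCK2 KD replicate 1 lay below Scr shRNA replicates 2 and 3. The log2 fold change was 0.40 (standard error 0.12, 95% interval 0.11 to 0.69, unadjusted p = 0.0138, adjusted p = 0.830 from limma). CD47 lies on chromosome 3 from 107761938 to 107810709. CD58 and CD47 were the genes of the set whose call depended on the batch step: with ComBat on the replicate number followed by limma without the block, a setting that called 2.84% of all tested genes, their adjusted p values were 0.0283 and 0.0447.

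CD48, a GPI-anchored SLAM family member that B cells carry at high levels, was the most abundant of the set. It was measured at 74.0, 157 and 91.0 in ROCK2 KD replicates 1, 2 and 3 and at 51.8, 95.4 and 106 in Scr shRNA. ROCK2 KD was higher in replicates 1 and 2, by 0.51 and 0.71, and lower in replicate 3, with a difference of -0.22. The log2 fold change of 0.33 (standard error 0.18, 95% interval -0.08 to 0.75, adjusted p = 0.958 from limma) therefore depended on the pairs included, and was 0.61 without replicate 3 and 0.14 without replicate 2. CD48 lies on chromosome 1 from 160648536 to 160681621, and an antisense lncRNA overlaps it.

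**Figure D2:**
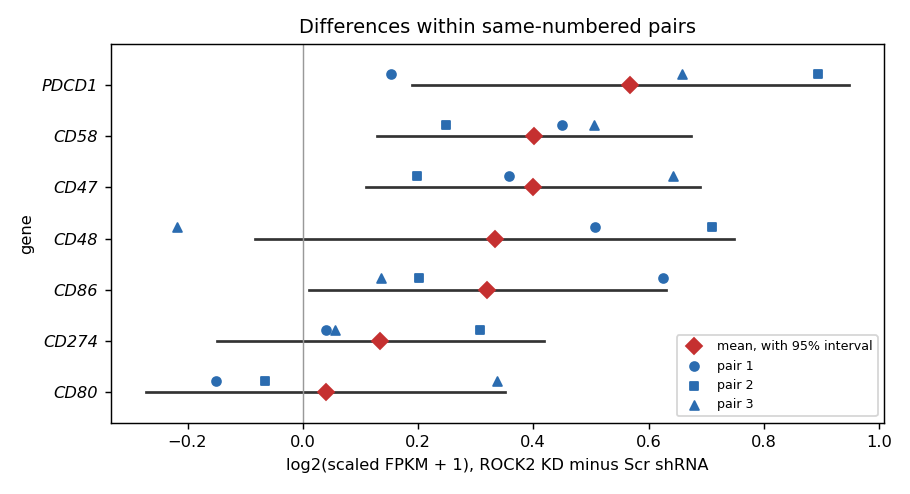
Differences between ROCK2 KD and Scr shRNA in log2(scaled FPKM + 1) for the 7 tested genes, with blue points for the 3 same-numbered pairs and red diamonds for the limma mean with its unadjusted 95% interval. Intervals of PDCD1, CD58, CD47 and CD86 lie above 0, that of CD86 from 0.01, while CD80 and CD48 have pairs on either side of 0.

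For several genes, levels differed more between replicate numbers than between ROCK2 KD and Scr shRNA. CD274 averaged 2.60 over both libraries of replicate 1, 0.661 in replicate 2 and 0.533 in replicate 3, a range of 1.23 on the log2 scale, beside a mean within-pair difference of 0.13 in size. PDCD1 ran the other way, at 0.240, 1.47 and 1.86 in replicates 1, 2 and 3, a range of 1.17 beside 0.57. CD48 had a range of 0.97 beside 0.48, and CD47 of 0.61 beside 0.40. In CD86 the range was 0.38 and the within-pair difference 0.32, and in CD80 both were 0.18. CD58 was the other way round, with a within-pair difference of 0.40 and a range between replicate numbers of 0.29. The replicate 1 libraries also had the lowest summed B cell markers, 687 and 492, where the other 4 had 1065 to 1298, and the part of this in the levels of the costimulatory genes was not tested.

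**Figure D3:**
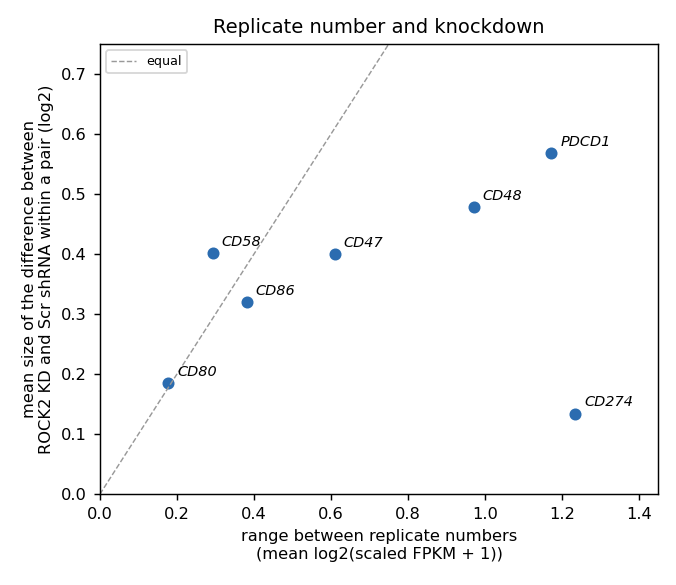
Range of the mean level between the 3 replicate numbers (horizontal, log2 scale) against the mean size of the difference between ROCK2 KD and Scr shRNA within a pair (vertical, log2 scale), for the 7 tested genes, with a dashed line of equality. CD274 lies far to the right at 1.23 and 0.13, and CD58 lies above the line.

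By level per length in Scr shRNA libraries, the order was CD48 (84.4 ± 28.7, SD, n = 3), CD47 (9.87 ± 1.98), CD86 (7.59 ± 1.70), CD80 (6.04 ± 1.03), CD58 (3.21 ± 0.261), CD274 (1.18 ± 1.19), PDCD1 (0.708 ± 0.524), ICOSLG (0.408 ± 0.102), PDCD1LG2 (0.0892 ± 0.0343) and BTLA (0.0483 ± 0.0404). CD48 stood above CD47 in all 6 libraries, as did CD47 above CD86, CD80 above CD58 and CD58 above CD274. CD86 exceeded CD80 in 5 of 6. CD274 exceeded PDCD1 in 2 of 6, those of replicate 1, and PDCD1 exceeded ICOSLG in 4 of 6, so neither of these neighbours kept its order. ICOSLG stood above PDCD1LG2, and PDCD1LG2 above BTLA, in all 6. Over the 6 libraries PDCD1 was most like CD47 among the tested genes of the set (Pearson r = 0.903) and least like CD274 (r = -0.75), a description over libraries that share replicate numbers.

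Among all tested genes, the single closest profile over the 6 libraries was that of WDR17 for CD274 (Pearson r = 0.999), SLC25A13 for PDCD1 (0.999), RIPK1 for CD80 (0.997), SH3KBP1 for CD48 (0.995), STRBP for CD47 (0.993), RPS6KA3 for CD86 (0.989) and KLHL7 for CD58 (0.988). With 6 libraries such values are easily reached: 530 genes exceeded an r of 0.95 with CD274, whose profile is mainly the contrast of replicate 1 with the others, while 1, 3 and 9 genes did so with CD80, CD86 and CD58.

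The direct partners of these molecules were mostly absent. Of 8, CTLA4 and CD2 were listed at 0 in all 6 libraries, and CD28, ICOS, SIRPG and CD244 did not exceed 0.0559. TNFRSF14, the HVEM receptor that binds BTLA, was measured at 5.57, 2.05 and 3.95 in ROCK2 KD and 4.55, 2.40 and 1.98 in Scr shRNA, a log2 fold change of 0.27 (adjusted p = 0.959 from limma). SIRPA, the CD47 receptor, had a log2 fold change of 0.24 (adjusted p = 0.963). In each of them the pairs differed in direction.

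Other families of costimulation gave no call either, and each is given by its count. Of 15 B7 and butyrophilin relatives 6 were tested, 1 of them higher and 5 lower in ROCK2 KD, with a median of -0.05. None had a direction shared by all pairs, and they ran from -0.21 for BTN2A1 and -0.10 for NCR3LG1, the B7-H6 ligand of natural killer cells, to -0.04 for BTN3A2 and 0.03 for BTN3A3. Of 9 SLAM family genes and their adaptors 4 were tested, with log2 fold changes of 0.53 for LY9, 0.48 for SLAMF7, 0.06 for SLAMF1 and -0.26 for SLAMF6. LY9 was measured at 1.76, 0.832 and 0.983 in ROCK2 KD and 1.01, 0.259 and 0.305 in Scr shRNA, higher in each pair (adjusted p = 0.747 from limma). On deposited FPKM, before scaling, LY9 reached the filter in the 3 ROCK2 KD libraries alone, so that its inclusion rested on the group where it was high and its direction is given as a description only. SLAMF7, a plasma cell antigen, was measured at 12.0, 14.1 and 20.4 in ROCK2 KD and 11.4, 8.93 and 11.7 in Scr shRNA, and every ROCK2 KD library lay above every Scr shRNA library.

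Of 26 symbols listed for other checkpoint ligands and receptors 5 were tested. TIGIT, an inhibitory receptor for PVR and nectin ligands that is mostly known from T cells and natural killer cells, was measured at 3.81, 5.29 and 7.94 in ROCK2 KD and 1.89, 3.55 and 3.18 in Scr shRNA. Its groups did not overlap, and its log2 fold change of 0.77 (standard error 0.14, unadjusted p = 0.00108, adjusted p = 0.747 from limma) exceeded that of PDCD1. CD70, the ligand of CD27, was the opposite case, at 18.5, 2.15 and 4.10 in ROCK2 KD and 21.5, 6.70 and 5.94 in Scr shRNA. It was lower in all 3 pairs, and fell short of the test (log2 fold change -0.65, standard error 0.20, adjusted p = 0.841 from limma). Replicate 2 carried most of it, with differences of -0.20, -1.29 and -0.44 in replicates 1, 2 and 3. Like CD274, CD70 was highest in both libraries of replicate 1. CD40, ICAM1 and TNFSF9 had log2 fold changes of -0.00, -0.01 and -0.03, with pairs on either side of 0.

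Genes around the signalling of these receptors were described in the same way. PTPN6 (SHP-1) and PTPN11 (SHP-2) are the phosphatases recruited by PD-1, BTLA and SIRPα. PTPN6 had a log2 fold change of 0.57 (adjusted p = 0.859 from limma), higher in all 3 pairs, and PTPN11 of 0.04. INPP5D (SHIP-1) had 0.24, higher in all 3 pairs with differences of 0.52, 0.16 and 0.03 (adjusted p = 0.958 from limma). INPP5E was on the same list by symbol, and no role at these receptors is claimed for it here. Its log2 fold change was -0.26, lower in all 3 pairs (adjusted p = 0.900 from limma). Of the factors known to induce PD-L1 and B7 ligands, IRF1 had 0.45 (adjusted p = 0.859 from limma) and JAK2 0.34, while STAT3 had 0.10 and RELA -0.09. IRF1 was higher in all 3 pairs, most in replicate 3, with differences of 0.35, 0.12 and 0.88. CMTM6, which keeps PD-L1 protein at the surface, had 0.26 and QPCTL, the enzyme that modifies CD47, had 0.03 (adjusted p = 0.935 and 0.997). Of 6 symbols listed for the neighbourhood of CD274 and PDCD1LG2 on chromosome 9, 5 were tested, with JAK2 as above, PLGRKT at 0.25, ERMP1 at 0.08 and KIAA1432 at -0.04.

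**Figure D4:**
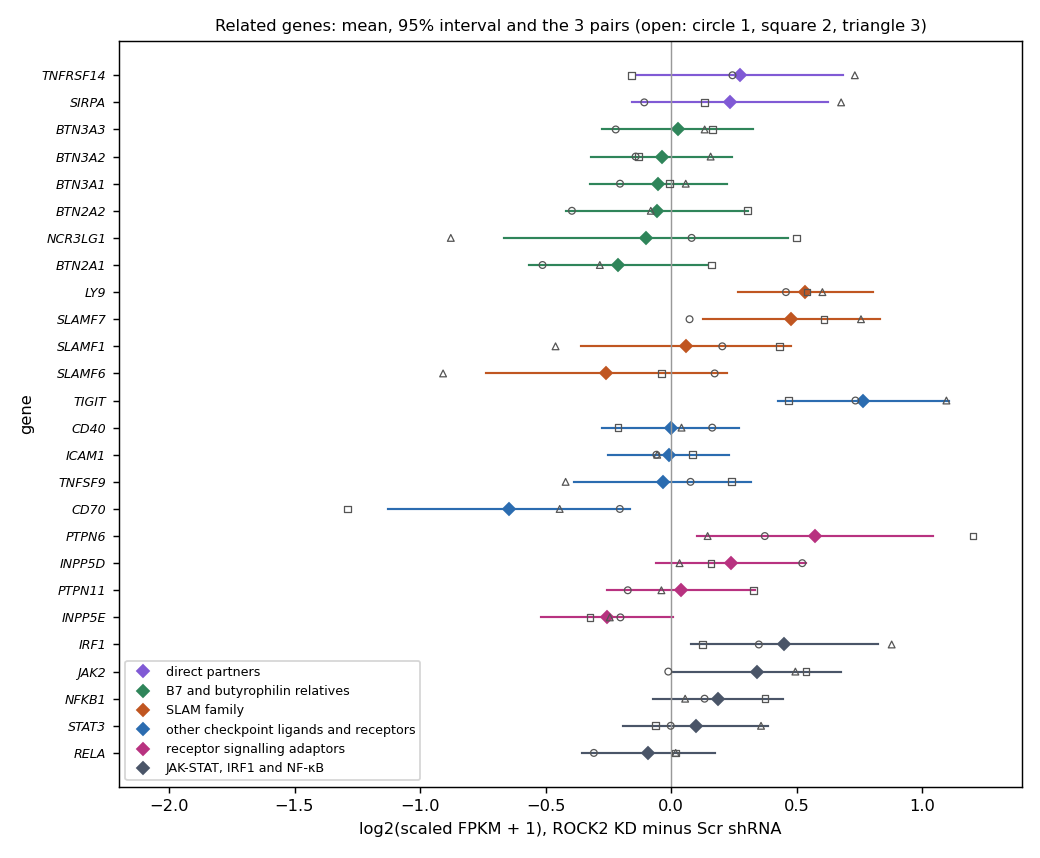
Differences between ROCK2 KD and Scr shRNA in log2(scaled FPKM + 1) for tested genes of 6 related groups, with diamonds for the limma mean, bars for its unadjusted 95% interval and open shapes for the 3 pairs. TIGIT at 0.77 and CD70 at -0.65 have all 3 pairs on the same side of 0, as does LY9 at 0.53, which passed the filter through ROCK2 KD libraries alone, while the butyrophilins straddle it.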

How the data were processed

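RNA-seq profiles of 6 U2932 libraries (3 ROCK2 KD and 3 Scr shRNA) were taken as the FPKM that the authors deposited, 1 file per library. Per the study's methods and the labels, Nextera libraries were sequenced as paired reads, aligned to hg19 with STAR and quantified with Cufflinks. FPKM hold no counts, so no count model was fitted. Each library was divided by its trimmed mean log ratio to the mean library (0.3 of the ratios and 0.05 of the levels trimmed at each end) and a pseudocount of 1 was added. Genes whose deposited FPKM, before scaling, reached 1 in 3 or more libraries entered limma 3.58.1 (R 4.3.3), blocked on the replicate number, with a variance trend. Benjamini-Hochberg adjustment ran over all tested genes at 0.05. Tests were two-sided. The block takes up the replicate number, the factor that the study removed with ComBat before its own limma test on counts; it is not the same step, and ComBat was run as an alternative. The deviations of same-numbered libraries from the group mean correlated at 0.848, 0.785 and 0.736 across genes in replicates 1, 2 and 3, which is the check of the pairing. ComBat was written out in R, without the condition. Steps were tested on simulated data. Positions come from GENCODE 44 lifted to GRCh37, and promoters from RefSeq (GRCh38.p14). Plots were drawn with matplotlib 3.10.9.

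The genes and lists were chosen with earlier results of these data known. The genes named are the 10 members, ROCK2, their partners, the 2 highest and 2 lowest log2 fold changes of each related list, and the gene with the profile closest to each tested member. Gene lists, related families and cell type markers were read by symbol, and VSIR and the nectins were sought under older symbols as well. A listed gene is not reported here. Marker genes and list genes singled out for a sentence were otherwise chosen after their values were seen.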

Additional observations from a re-analysis of the deposited data

How the results depend on the processing

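Directions of the 7 tested genes were kept under all alternatives run in which they were tested, except that CD80 ran from -0.11 without replicate 3 to 0.14 without replicate 1. The count of all genes past the threshold was 0 with the replicate block and without it (577 and 30 at an unadjusted p under 0.05), and taking out the replicate block changed no call. It lay between 0 and 18 with each replicate left out, 18 without replicate 1 and 4 without replicate 3, and none of these were among the 10 genes. ComBat followed by limma without the block called 299 genes, 164 of them higher in ROCK2 KD, and 2 of the 7, CD47 and CD58. No count of false calls among the 299 can be given. With a deposited FPKM of at least 1 required in every library, PDCD1 and CD274 were not tested and 3 of the remaining 5 genes were higher in all 3 pairs, in place of 5 of 7. Over both remaining pairs that number was between 5 and 6 with a replicate left out. The log2 fold change of ROCK2 lay between -1.04 and -0.44 with a replicate left out and was -1.06 with a pseudocount of 0.1. Other scalings moved the median of all genes by less than 0.1 on the log2 scale. With limma and the block none of the 7 differences passed the adjustment over all genes, and values of ICOSLG, PDCD1LG2 and BTLA were too low to be tested.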
